A study of Caenorhabditis elegans with 4 samples.

Results

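In embryos of the nematode Caenorhabditis elegans, 1870 places on chromosome IV were listed for the transcription factor PAX-1 in both chromatin immunoprecipitation (ChIP-seq) libraries of the study. They are the regions of the replicate 1 list on IV that overlap a region of the replicate 2 list by at least 1 bp. They make up 34.9% of the 5352 replicate 1 regions on IV (95% Wilson interval 33.7% to 36.2%), against a background of 34.0% for all replicate 1 regions on the 6 nuclear chromosomes. Chromosome IV holds 18.3% of the 10198 reproducible regions of the nuclear genome.

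The 4 samples, 2 ChIP and 2 Input, come from strain OP117, which was outcrossed 3 times. It carries the mutation unc119(ed3) and the transgene wgIs117, in which pax-1 is joined to TY1, EGFP and FLAG tags and unc119 is the rescue marker; ChIP and Input share both. Embryos of a mixed Male and Hermaphrodite population, from worms grown at 20 °C, were crosslinked with 2% formaldehyde, and the PAX-1 fusion protein was recovered with an antibody against green fluorescent protein (GFP). The transgene was put in by bombardment, which leaves its copy number and place unstated, and the genotype lists no change at the animals' own pax-1 gene, so untagged PAX-1 may be present. ChIP replicates 1 and 2 each have 1 list of regions, and a combined list covers both. For Input no list was used, so regions could not be counted there.

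PAX-1 belongs to the paired-box family, whose members bind DNA through the paired domain. Chromosome IV stands apart in this species because it carries most genes for piwi-interacting RNAs (piRNAs), small RNAs that guide the Argonaute protein PRG-1 to silence transposons and other transcripts in the germ line. RefSeq's genes for assembly WBcel235 place 14714 of 15363 piRNA genes (95.8%) on IV, and from 78 to 202 on each other nuclear chromosome. Most piRNA genes are short, each has a promoter of its own, and they crowd into 2 broad domains, taken here as 4500000 to 7000000 (left domain) and 13500000 to 17200000 (right domain). These limits were applied to WormBase WS220, the build of the lists, but whether they were defined on it is not known, so every comparison of the domains carries that doubt. Nematode autosomes also have gene-dense centres and repeat-rich arms. The comparisons asked whether PAX-1 regions were denser, or more often carried into the combined list, inside the piRNA domains than in the rest of IV, and in one arm than in the other.

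Whole lists held 30000 regions in replicate 1, 19190 in replicate 2 and 917 in the combined list, of which 5352, 3487 and 135 were on IV. The lists hold positions, a number and a score for each region but no read counts, so depth is unknown. The region numbers were read as ranks, with low numbers for strong regions, because they rise as the authors' score falls (Spearman correlation -1.0 over the 5352 replicate 1 regions of IV and -0.998 over the 3487 of replicate 2). In the combined list it was -0.917 over the 135 regions of IV. The score is capped, at 3.35 in replicate 1, 2.37 in replicate 2 and 2.95 in the combined list. On IV, 153 replicate 1 regions (up to number 1110) and 19 of replicate 2 (up to 115) carry the capped score. So do 70 of the combined list (up to number 408). Among these tied regions the order rests on the number alone, with no score to back it. All intervals below cover the counting of regions only and treat regions as independent. They are too narrow, since 490 of the 1870 reproducible regions (26.2%) overlap another one and neighbours can be parts of 1 site. No p-value is given, because regions of a list are not replicates. Whether the ChIP replicates came from separate cultures is not stated.

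Of the 10 reproducible regions of IV with the lowest replicate 1 numbers, 6 lay outside the piRNA domains. Near the right end of the chromosome, 17278434 to 17278611 ranked highest of IV in replicate 1, as number 10, and was number 295 in replicate 2. The next, at 10304370 to 10304779, was number 12 and 49, and it was also the highest of IV in the combined list, at number 11. Then came 8432852 to 8433040, with number 13 and 133. All of these lie outside both domains. In the left arm, 1659048 to 1659457 ranked number 28 and 33, and 654863 to 655017 ranked number 35 and 151. Between the domains, close to the start of the right one, 13085933 to 13086342 ranked number 31 in replicate 1 but 1910 in replicate 2. These 6 regions and 4 inside the domains form the 10 highest of IV by replicate 1, and all 10 carry the capped replicate 1 score of 3.35.

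Inside the right domain, 14464066 to 14464475 ranked highest of the 1870 in replicate 2, at number 27, and was number 49 in replicate 1. Another, 14032904 to 14033052, had number 19 in replicate 1 and 1149 in replicate 2, with an overlap of only 17 bp and midpoints 317.5 bp apart. The other 3 of the 5 highest in the right domain, at 14070838 to 14071247, 15570708 to 15571117 and 14767681 to 14768090, were number 130, 186 and 190 in replicate 1. In replicate 2 those 3 were number 595, 146 and 487. Of the 63 regions numbered 1 to 1000 in both lists, 11 lie in the right domain, 17 in the left and 35 in the rest.

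Inside the left domain, 5806330 to 5806739 ranked alike in the replicates, at number 55 and 36. So did 6984767 to 6984868, only 102 bp wide, at number 76 and 66. By contrast, 6767173 to 6767582 had number 32 in replicate 1 and 897 in replicate 2. The others of the 5 highest there, at 4749848 to 4750257 and 6323648 to 6324057, were number 74 and 117 in replicate 1 and 237 and 948 in replicate 2. A further region of the left domain, at 6576708 to 6577117, came into the 10 highest by replicate 2 with number 60, against 303 in replicate 1.

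Of the 10 highest regions of IV by replicate 2, 4 have not been named so far: 8133623 to 8134032 (number 31 in replicate 2 and 327 in replicate 1), 17275310 to 17275719 (37 and 105), 7486329 to 7486444 (50 and 123) and 255468 to 255877 (54 and 302). In these 4 the midpoints of both replicates lay 7 to 26 bp apart, under the lower quartile of 67 bp over all members. The 10 highest combined regions of IV, numbered 11 to 55 in that list, each lie on 1 of the regions named here. No gene or sequence is given for any region, because a genome or annotation of WS220 was not used here.

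Over all 1870, most reproducible regions were weak. The median replicate 1 number was 11548.5 (quartiles 4475 and 19959), and the median number of the replicate 2 partner, the overlapping region with the lowest number, was 7231.5 (quartiles 3007 and 13087). Only 63 regions were numbered 1 to 1000 in both lists, out of 129 so numbered in replicate 1 and 173 in replicate 2, and 466 had replicate 1 numbers over 20000. The 3482 replicate 1 regions of IV that overlap nothing in replicate 2 had a median number of 16694.5, so the shared regions ranked higher, but the quartiles of both sets overlap. Across the 1870 regions the Spearman correlation of both numbers was 0.222, and across the 8328 of the other chromosomes 0.298. These are correlations across regions, which share the same 2 libraries, and carry no p-value.

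**Figure D1:**
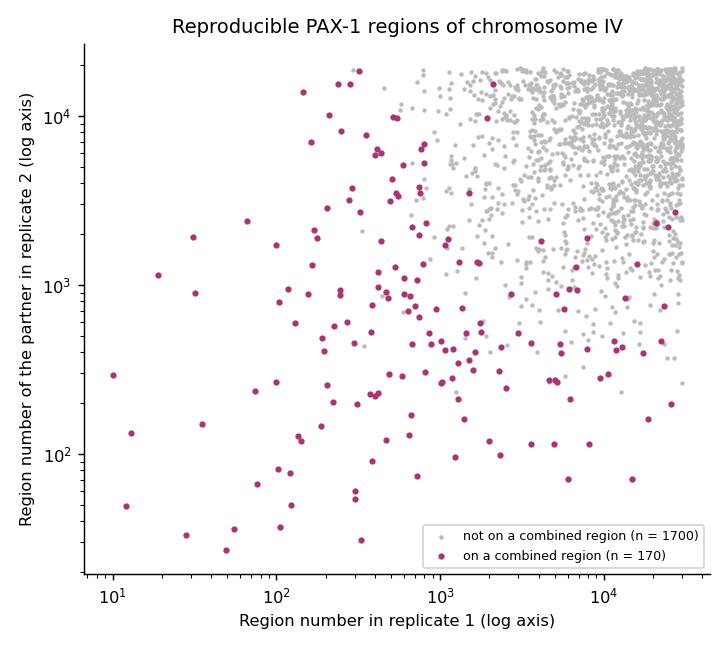
Each point is 1 of the 1870 reproducible regions of chromosome IV, placed by its number in replicate 1 and the number of its partner in replicate 2 (both log axes; low numbers are strong). The 170 regions on a combined region are coloured; their median numbers are 665 and 582.5, against 12717 and 8103.5 for the other 1700.

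The overlap limit of 1 bp admitted loose pairs. Members and partners had midpoints a median of 155 bp apart (quartiles 67 and 284), with fixed widths of 410 bp for 1864 of the 1870 regions and of 520 bp for all replicate 2 regions of IV. Just inside the limit, 20 regions overlapped replicate 2 by 10 bp or less, with a median replicate 1 number of 13993, and 0 of them were on a combined region. Just outside it, 19 regions lay within 10 bp of a replicate 2 region without touching it, with a median number of 18128, and again 0 were on a combined region. Demanding an overlap of 50% of both regions left 1223 of the 1870, and demanding midpoints within 200 bp left 1210.

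Reproducible regions were slightly denser in the piRNA domains than in the rest of IV. The domains held 705 regions in 6.2 Mb, or 113.7 per Mb, and the rest held 1165 in 11.3 Mb, or 103.2 per Mb. The ratio was 1.10 (exact conditional 95% interval 1.0 to 1.21). The right domain held 445 regions, or 120.3 per Mb (ratio to the rest 1.17, interval 1.04 to 1.30). In the left domain there were 260, or 104 per Mb (ratio 1.01, interval 0.878 to 1.15). Left over right, the ratio of reproducible regions was 0.865 (interval 0.739 to 1.01). All regions of a library gave 0.828 in replicate 1 (interval 0.756 to 0.905) and 0.860 in replicate 2 (interval 0.769 to 0.962), which exclude 1.

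Each library alone listed more regions in the domains. In replicate 1 the density was 341.3 per Mb inside and 286.6 outside (ratio 1.19, interval 1.13 to 1.26). In replicate 2 it was 218.5 and 188.8 per Mb (ratio 1.16, interval 1.08 to 1.24). Both libraries gave the domains the same order, with ratios to the rest of 1.28 and 1.23 in the right domain and of 1.06 and 1.05 in the left, where both intervals include 1. The ratio of the shared regions, 1.10, was below that of either library, with overlapping intervals.

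Densities varied along the chromosome, inside the domains and outside. In windows of 500 kb, the 12 windows inside the domains held 56.3 ± 12.7 reproducible regions (SD over windows) and the 22 outside held 50.5 ± 11.6. The windows overlap almost fully, with 38 to 80 inside and 25 to 80 outside. Over all 34 full windows the SD was 12.1, against 7.25 if counting error were the only source, which again shows that regions are not spread evenly. The densest windows lay in the right domain at 14500001 to 15000000 and at the left end of the chromosome, with 80 regions each, and in the left domain at 5500001 to 6000000, with 75. The sparsest lay outside the domains, at 9500001 to 10000000 with 25, at 7000001 to 7500000 with 36 and at 4000001 to 4500000 with 38.

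**Figure D2:**
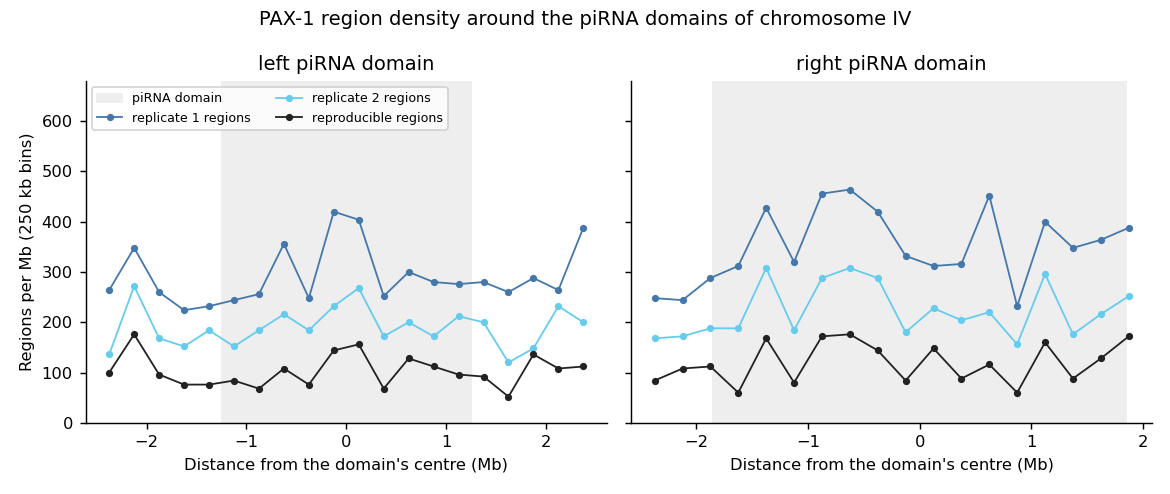
Regions per Mb in bins of 250 kb (y axis) against the distance from the centre of the left and right piRNA domains in Mb (x axis, domains shaded), for replicate 1, replicate 2 and the reproducible regions. Densities of the reproducible regions range from 52 to 176 per Mb around the left domain and from 60 to 176 around the right one.

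The density difference also depended on what it was compared with. Against the stretches of IV within 1 Mb of a domain the ratio was 1.03 (interval 0.902 to 1.17). Among the upper 50% of the replicate 1 list it was 0.998 (interval 0.881 to 1.13). With regions less than 5000 bp apart counted once it was 1.14 (interval 0.988 to 1.31).

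A region of replicate 1 was a little less likely to be shared when it lay in a domain. Of the 2116 replicate 1 regions in the domains 33.3% overlapped replicate 2, against 36.0% of the 3236 in the rest, a difference of -2.68 points (Newcombe 95% interval -5.27 to -0.0709). From the side of replicate 2 this was not seen: 53.6% of its 1355 regions in the domains overlapped replicate 1, against 53.1% of its 2132 in the rest (difference 0.484 points, interval -2.91 to 3.87). The replicate 1 difference was -1.14 points when 50% of both regions had to overlap (interval -3.41 to 1.17) and -1.20 points with midpoints within 200 bp (interval -3.47 to 1.10). It was thus present with replicate 1 as the base and an overlap of 1 bp, and not resolved with replicate 2 as the base or closer overlaps. The rest includes the first 500 kb of IV and the 0.291 Mb beyond the right domain. Of the replicate 1 regions there, 46.2% and 42.1% were shared. The difference without these ends was not computed.

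**Figure D3:**
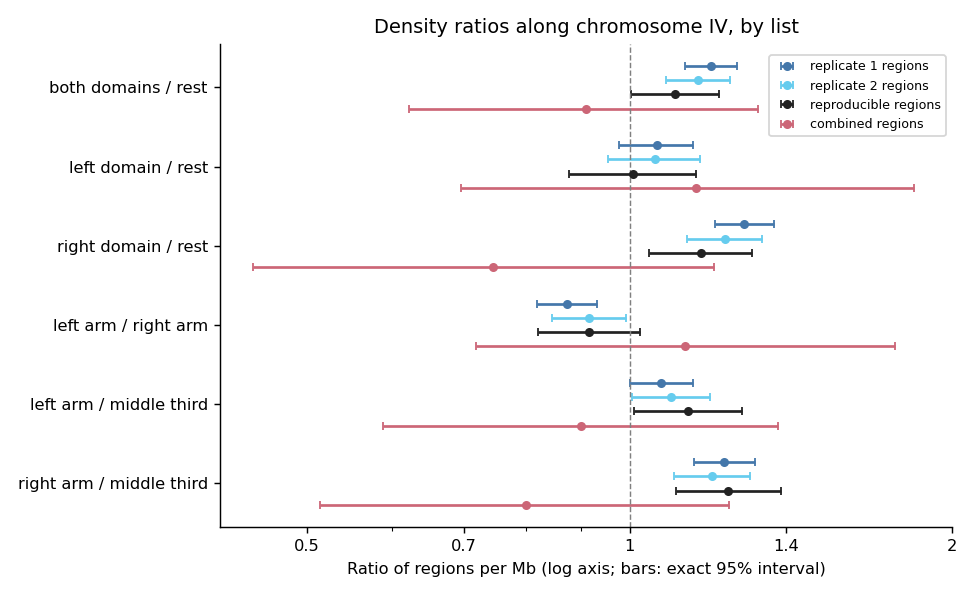
Ratio of regions per Mb between 2 stretches of chromosome IV (x axis, log scale; bars are exact 95% intervals that cover counting only), for the 4 lists named in the legend. Ratios of the right domain to the rest lie above 1 in replicate 1, replicate 2 and the reproducible regions (1.28, 1.23 and 1.17), while the combined regions lie at 0.746 with an interval that includes 1.

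The combined list kept a small part of the reproducible regions. On IV, 170 of 1870 (9.09%, Wilson interval 7.87% to 10.5%) overlapped a combined region, against a background of 10.7% over all nuclear chromosomes and 11.1% on the other 5. The difference from the other 5 was -2.00 points (Newcombe interval -3.41 to -0.469). By chromosome the share ran from 9.09% on IV and 9.12% on V through 10.3% on X and 11.5% on II to 12.1% on III and 12.2% on I. IV and V do not differ beyond their intervals. As the combined list covers the same libraries, it is no independent check of them.

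Kept regions tended to be high in both replicates. Their median number was 665 in replicate 1 and 582.5 in replicate 2, against 12717 and 8103.5 for the 1700 not kept. Their midpoints in both replicates lay a median of 63 bp apart, against 165 bp for the others. Of the 63 regions numbered 1 to 1000 in both lists 60 were kept. Some kept regions had a low place in 1 list: 30 had replicate 1 numbers over 5000 and 19 had replicate 2 numbers over 5000, up to 27101 and 18561. The one numbered 27101, at 1012631 to 1013040, overlaps a region numbered 322 that lies on the same combined region. A weak region can thus count as kept beside a strong one. How many of the 30 did so was not counted. The 170 regions lie on 134 of the 135 combined regions of IV, and 38 of these lie on more than 1 of them.

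Of the reproducible regions numbered 1 to 1000 in replicate 1, 26 were not kept. Among the 5 of them numbered up to 500, 4 overlapped their partner by at most 50 bp. Among the 21 numbered 501 to 1000 the overlap was at least 54 bp, with a median of 330 bp, and the partners had a median number of 8032. The highest of the 5, at 11082737 to 11083146, was number 295 in replicate 1, and its partner, number 18799 in replicate 2, overlapped it by 20 bp. The regions at 13887410 to 13887819 (number 333), 6117754 to 6118163 (number 344) and 5753985 to 5754394 (number 440) overlapped their partners by 32, 2 and 48 bp. Those partners were number 2093, 437 and 862 in replicate 2, so in these the libraries placed strong regions side by side. The last of the 5, at 10935216 to 10935625, number 455, shared 308 bp with its partner, which was number 14674.

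The strongest replicate 1 regions of IV with no partner at all started at number 250, at 8002496 to 8002905. The next were number 520 at 6839013 to 6839422, number 594 at 15472353 to 15472762, number 673 at 9667011 to 9667420 and number 686 at 6919357 to 6919766. The last of these, in the left domain, lies on the combined region at 6919296 to 6919791, number 809 of that list with a score of 1.82. All 135 combined regions of IV overlap a replicate 1 region, and this is the 1 that overlaps no replicate 2 region.

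The share kept did not differ detectably between the piRNA domains and the rest. In the domains 63 of 705 were kept (8.94%, Wilson interval 7.05% to 11.3%) and in the rest 107 of 1165 (9.18%, interval 7.66% to 10.98%). The difference was -0.248 points (Newcombe interval -2.85 to 2.54). Combined regions themselves numbered 45 in the domains (7.26 per Mb) and 90 in the rest (7.97 per Mb), a ratio of 0.911 (interval 0.622 to 1.32).

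The domains differed from each other in the share kept, in a comparison chosen after the values were seen. In the left domain 31 of 260 were kept (11.9%, interval 8.53% to 16.4%) and in the right 32 of 445 (7.19%, interval 5.14% to 9.98%), a difference of 4.73 points (Newcombe interval 0.341 to 9.68). The left domain's kept regions were not spread evenly. Its window at 6500001 to 7000000 held 13 of the 31, among 52 reproducible regions, and 11 of the domain's 23 combined regions. Its other windows of 500 kb held 3 to 6 kept regions each. Taking all regions of 1 library as the base gave 1.86 points in replicate 1 (interval 0.315 to 3.67) and 3.36 points in replicate 2 (interval 1.02 to 6.08). The median replicate 1 number of the reproducible regions was 13591 in the right domain, against 11224.5 in the left domain and 11072 in the rest. Against the rest of IV, the share of reproducible regions kept differed by 2.74 points in the left domain (interval -1.10 to 7.49) and by -1.99 points in the right (interval -4.72 to 1.18). With all regions of 1 library as the base, the right domain differed from the rest by -2.17 points in replicate 2 (interval -3.62 to -0.505), which excludes 0, and by -0.979 points in replicate 1 (interval -1.94 to 0.128).

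Within classes of replicate 1 number, the differences between domains and rest all had intervals that include 0, and some were wide. All 23 replicate 1 regions of the domains numbered 1 to 500 were reproducible, as were 53 of 54 in the rest. Of those, 20 of 23 (86.96%) were kept in the domains and 51 of 53 (96.2%) in the rest, a difference of -9.27 points (Newcombe interval -28.5 to 3.10). For numbers 1001 to 5000 the reproducible share was 49.6% in the domains and 56.6% in the rest, a difference of -7.02 points (interval -14.7 to 0.742). For numbers 20001 to 30000 it was 25.8% and 27.3%, a difference of -1.58 points (interval -5.73 to 2.65).

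**Figure D4:**
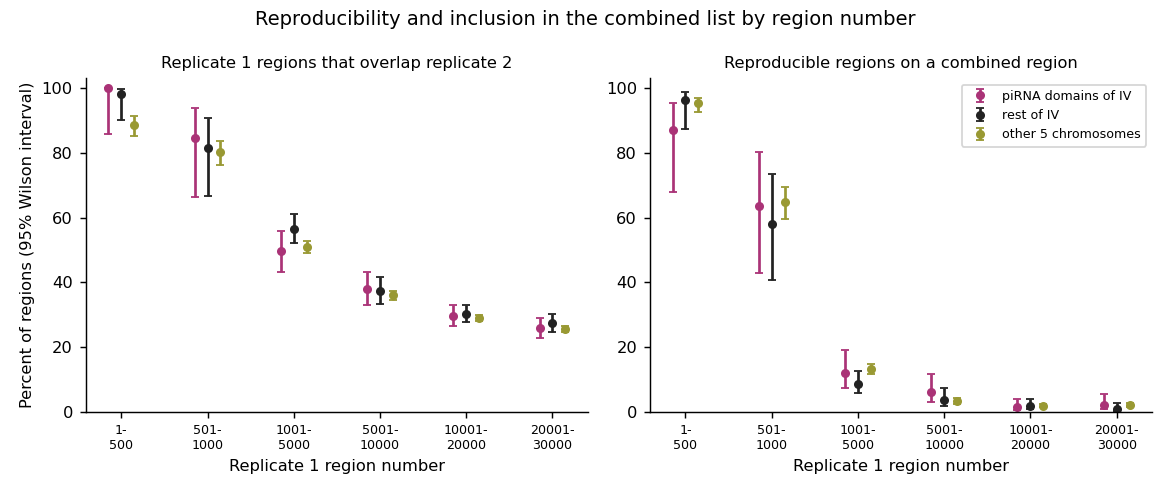
Share of replicate 1 regions that overlap replicate 2 (left) and share of reproducible regions on a combined region (right), in percent with 95% Wilson intervals, by class of replicate 1 region number, for the piRNA domains of IV, the rest of IV and the other 5 chromosomes. Both shares fall steeply with number, and the intervals of the domains and of the rest overlap in every class.

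The arms of IV were taken as the outer parts when the listed length is divided into 3 equal parts. The left arm held 629 reproducible regions (107.9 per Mb), the middle part 555 (95.2 per Mb) and the right arm 686 (117.7 per Mb). The ratio of left to right was 0.917 (interval 0.822 to 1.02), which includes 1. With shorter arms, the outer parts when the length is divided into 4, it was 0.867 (interval 0.765 to 0.983), and with replicate 2 regions as the members 0.888 (interval 0.795 to 0.992), and both exclude 1. Each library alone had fewer regions in the left arm, with ratios of 0.873 (interval 0.818 to 0.932) in replicate 1 and 0.916 (interval 0.845 to 0.993) in replicate 2. The right domain fills most of the right arm. Outside it, the right arm held 113.1 reproducible regions per Mb. The ratio of left to right was then 0.954 (interval 0.821 to 1.11), with ratios of 1.0 and 1.04 in the replicate lists. Of the 241 regions in that part of the right arm, 53 lay in the 0.291 Mb beyond the right domain, at 182 per Mb. The left arm also includes a chromosome end, with 80 regions in its first 500 kb.

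Both arms were denser in reproducible regions than the middle part. The ratio was 1.13 for the left arm (interval 1.01 to 1.27) and 1.24 for the right (interval 1.10 to 1.38). For the left arm the replicate 1 list gave 1.07 (interval 0.9996 to 1.15), which includes 1, and the replicate 2 list 1.09 (interval 1.01 to 1.19). For the right arm they gave 1.23 and 1.19, with intervals that exclude 1. Each arm includes a chromosome end, and ratios without the ends were not computed. In the combined list the order was opposite, with 50 regions in the middle part, 45 in the left arm and 40 in the right, but the ratios of 0.900 and 0.800 have intervals that include 1. Regions numbered 1 to 1000 in replicate 2 made up 11.9% of the reproducible regions in the middle part and 6.56% in the right arm, a difference of -5.33 points (right minus middle, Newcombe interval -8.71 to -2.11). By replicate 1 numbers the shares were 8.11% and 5.69%, a difference of -2.42 points with an interval that includes 0 (-5.40 to 0.395). These were 2 of 12 quantities compared between these parts.

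The arms did not differ detectably in the share reproducible or the share kept. Of the replicate 1 regions 36.2% were reproducible in the left arm and 34.5% in the right (difference 1.72 points, Newcombe interval -1.35 to 4.79). Of the reproducible regions 58 of 629 (9.22%) were kept in the left arm and 53 of 686 (7.73%) in the right, a difference of 1.5 points (interval -1.52 to 4.57). In the middle part 59 of 555 (10.6%) were kept. Regions numbered 1 to 1000 in replicate 2 made up 9.86% of the reproducible regions in the left arm and 6.56% in the right. That difference of 3.30 points (interval 0.330 to 6.34) excludes 0, among several quantities compared between the arms. By replicate 1 numbers it was 1.47 points (interval -1.19 to 4.20).

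Stretches at the same relative position on the other chromosomes, which carry few piRNA genes, served as a background. The density ratio of both stretches to the rest of the chromosome was 1.10 on IV. It was 1.20 on III (interval 1.08 to 1.32), 1.10 on II (interval 0.992 to 1.22), 1.01 on X, 0.978 on V and 0.972 on I. For the right stretch alone, IV had 1.17, and II and III had 1.17 (interval 1.03 to 1.32) and 1.16 (interval 1.03 to 1.30). These density ratios of IV thus lay inside the range of chromosomes without piRNA domains. The difference in reproducible share of replicate 1 regions, at -2.68 points on IV (interval -5.27 to -0.0709), lay outside it. On the others it ran from -1.22 points on II (interval -4.10 to 1.69) to 1.81 on III (interval -1.02 to 4.66). All intervals of the others include 0 and overlap that of IV.

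The share kept was compared in the same stretches. Its difference between both stretches and the rest ran from -2.16 points on I to 1.90 on X, with -0.248 on IV, and every interval included 0. In the right stretch the difference was -4.43 points on I (interval -7.61 to -0.665). It was -3.57 points on V, -1.99 on IV, -1.35 on II, -0.246 on III and 2.32 on X, with intervals that include 0. For all replicate 1 regions IV had the highest ratio of both stretches to the rest, 1.19 (interval 1.13 to 1.26), next to 1.14 on II (interval 1.07 to 1.21) and 1.14 on III (interval 1.07 to 1.21), whose intervals overlap that of IV. It was 0.963 on I (interval 0.908 to 1.02), 0.977 on V (interval 0.921 to 1.03) and 1.01 on X (interval 0.954 to 1.07), and these do not overlap it. In the right stretch the replicate 1 ratio was 1.28 on IV (interval 1.20 to 1.36) and at most 1.18 elsewhere, on II (interval 1.10 to 1.27).

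**Figure D5:**
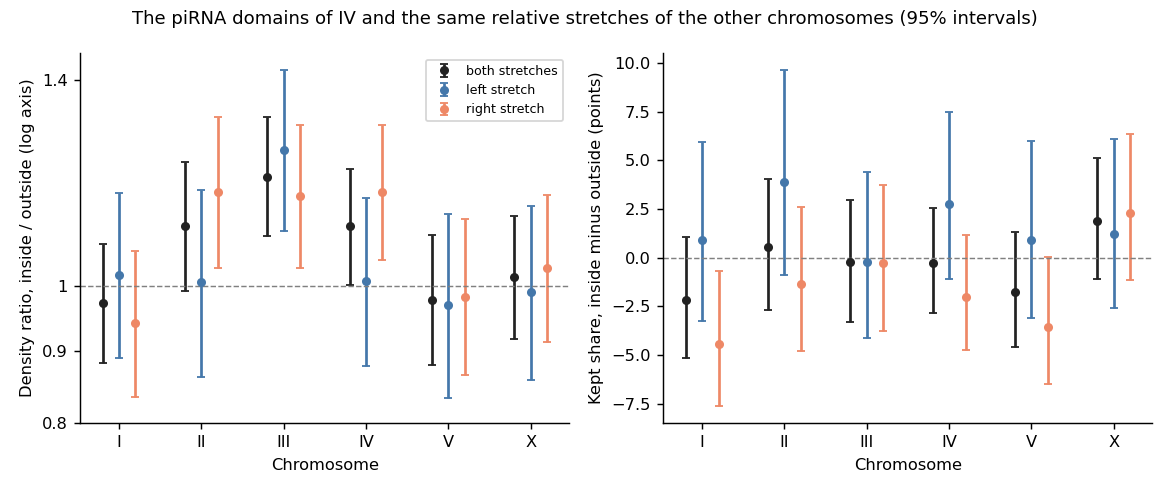
Density ratio of reproducible regions inside to outside (left, log axis) and share kept inside minus outside in percentage points (right), with 95% intervals, for the piRNA domains of chromosome IV and for stretches at the same relative position on each other chromosome. The value of IV for both stretches, 1.10, lies between those of I (0.972) and III (1.20).

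The balance between the arms varied among the other chromosomes too. The ratio of left to right in reproducible regions was 0.740 on II (interval 0.651 to 0.841), lower than the 0.917 of IV. It was 0.933 on V, 1.05 on I and III and 1.06 on X, with intervals that include 1.

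Reproducible regions were also grouped into runs. The number of runs for regions placed at random was not computed, so the counts are a description only. With gaps of up to 5000 bp joined, the 1870 regions formed 845 runs, of which 418 held a single region and 79 held at least 5. The longest run held 17 regions over 25496 bp at 8761388 to 8786883, outside the domains, and 2 of the 17 were kept. The next held 15 over 27521 bp at 16010224 to 16037744 in the right domain, with 1 kept. The one after that held 13 over 20256 bp at 11019931 to 11040186, with 5 kept, and included a region numbered 100 in replicate 1. The median distance between neighbours was 4652 bp in the left domain, 4592 bp in the right and 4492 bp in the rest.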

How the data were processed

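The authors deposited 3 lists of regions in GFF version 3 format on WormBase WS220, per the file headers, 1 for each ChIP replicate and 1 combined. The source column names SPP, a peak caller, and IDR, a procedure that compares ranks between replicates. The aligner, tool versions and thresholds, and how Input and the combined list were handled, were not stated (not given in the sources used here). The score of each region is the authors', deposited in column 6 with no stated scale.

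From these lists, overlaps were counted by position in Python 3.11.15 with numpy 2.4.6, pandas 2.3.3 and scipy 1.17.1, and plots were drawn with matplotlib 3.10.9. Regions were assigned to stretches by midpoint, and a chromosome's length was its last listed base (17491261 on IV). Shares carry Wilson intervals, their differences Newcombe intervals, and density ratios exact conditional binomial intervals, all at 95%. The overlap and interval functions were tested on simulated lists. Mitochondrial regions were left out. A RefSeq gene table of assembly WBcel235 gave gene counts per chromosome and no coordinates.

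The members, tests and alternatives were chosen with earlier results of these data known. By the rule for naming, the 10 highest members by each replicate, the 10 highest combined regions, the 5 highest in each domain, the 5 highest not kept, the 5 highest without a partner, the combined region on no member, and the 3 densest and sparsest windows and 3 densest runs are named. The alternatives were other overlaps, the upper 50% of a list, replicate 2 as the base, each replicate alone, neighbours counted once, and other domain and arm limits.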

Additional observations from a re-analysis of the deposited data

How the results depend on the processing

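No paired analysis was possible because Input has no list to pair with ChIP here and the comparisons count regions, not samples. Among 67 alternative values, for 8 results in all, 59 stayed within the interval of the reported value or, for the count of members, within 1.5 times of it. The 1870 members became 1223 with 50% of both regions, 1210 with midpoints within 200 bp and 1127 in the upper 50% of the replicate 1 list, which is shorter by construction. The density ratio of domains to rest turned to 0.998 in that upper 50%, and its interval included 1 against the flanks and with neighbours counted once. With overlapping members counted once, added after seeing the data, it was 1.13. The difference in reproducible share turned from -2.68 to 0.484 points with replicate 2 as the base. Between the arms it turned from 1.72 to -1.67 points with replicate 2 as the base and to -1.88 without the right domain. The kept share of the left domain alone differed from the rest by 2.74 points. With 1 replicate alone, the density ratios ranged from 1.16 to 1.19 for the domains and from 0.873 to 0.916 for the arms. The kept share differences then ranged from -0.939 to -0.313 points for the domains, from 0.674 to 0.735 for the arms and from -1.22 to -0.673 for IV against the others. That last difference was -0.677 in the upper 50% of the combined list, with an interval that included 0. The cause of these changes was not tested. With depth unknown, no limit can be put on how it affects the weaker regions.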

Other observations

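These comparisons were chosen after the values were seen. Reproducible regions were denser in the last 500 kb at each end of IV, with 80 at the left end and 86 at the right end. That is 166 per Mb, against 103.3 per Mb between the ends, a ratio of 1.61 (exact conditional interval 1.36 to 1.89). Both libraries listed more regions there, with ratios of 1.25 (interval 1.12 to 1.39) in replicate 1 and 1.36 (interval 1.19 to 1.54) in replicate 2. A replicate 1 region was also more often shared there, 44.03% against 34.3% (difference 9.78 points, Newcombe interval 4.68 to 15). The share kept, 17 of 166 regions or 10.2%, was close to the 8.98% between the ends. The ends were denser on the other autosomes too, with ratios from 1.25 on III to 1.86 on V, but not on X, where the ratio was 0.849 (interval 0.671 to 1.06). More frequent sharing at the ends was less general. Its difference excluded 0 on V as well (6.60 points, interval 1.64 to 11.8), but not on I, II, III or X. The reason was not tested.

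Among the 500 lowest replicate 1 numbers, 76 of the 77 regions on IV were reproducible (98.7%), against 367 of 414 (88.6%) on the other chromosomes, a difference of 10.1 points (Newcombe interval 3.75 to 13.6). The shares on those ran from 84.8% on V to 91.4% on X. For the 1000 lowest numbers, which include those 500, the difference was 7.11 points (interval 0.897 to 11.5). For numbers 501 to 1000 alone the shares were 82.8% on IV (Wilson interval 71.8% to 90.1%) and 80.3% on the others (interval 76.3% to 83.8%). Replicate 1 regions of IV numbered up to 500 thus more often overlapped replicate 2 by at least 1 bp, which was not resolved for 501 to 1000. Of the 76, 4 regions that were not kept overlapped their partner by at most 50 bp. Closer overlaps were not compared in this class. The share kept of all reproducible regions, by contrast, was lower on IV (9.09%) than on the other 5 together (11.1%), though V had 9.12%. With the upper 50% of the combined list, that difference had an interval that included 0.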
